A study of Mus musculus with 22 samples.

Results

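mmu-miR-1224 is 1 of the 566 mouse miRNA probes, among 626 probes in all, that the NanoString nCounter mouse miRNA assay counted in fallopian tubes, metastatic tumors and plasma of mice carrying a conditional ovarian cancer model. It was selected on its own values in these samples, namely its high level in metastatic tumors and in 1 induced fallopian tube relative to control tubes, its spread within those groups and its relation to the housekeeping mRNA probes, so these are given here as a description without a test. Tissue came from 5 control fallopian tubes (CT1 to CT5), 5 doxycycline-induced fallopian tubes (FT1 to FT5) and 5 metastatic tumors (M1 to M4 and M6). Plasma came from 3 control mice (CS2 to CS4) and 4 mice with tumors (TS1 to TS4), which the labels call serum in one field and plasma in another. M5 and CS1 were not analysed here.

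The mice carried conditional alleles, among them floxed Brca1 or Brca2. Cre recombinase was under the control of Pax8, a gene of the fallopian tube secretory cell, through a doxycycline-inducible system, so the deletions were made in Pax8-expressing cells of the induced mice and not in the rest of the sampled tissue. The uninduced controls carried the same kinds of floxed alleles. Genotypes are those of the study, since the sample labels do not state them, and only Brca1 and Brca2 are described. CT1 and CT3 were Brca1 fl/fl, CT2 was Brca1 fl/+, CT4 Brca2 fl/fl and CT5 Brca2 fl/+. FT1, FT3 and FT5 were Brca2-/+, FT2 was Brca1-/- and FT4 Brca2-/-. Among the tumors, M1 and M3 were Brca2-/-, M2 and M6 Brca1-/+, and M4 Brca2-/+. M6 was labelled an ovarian tumor and the other 4 were peritoneal metastases. Which tumors shared a mouse with an induced tube is not named in the sources used here.

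MicroRNAs are short RNAs that sit in an Argonaute protein and lower the output of mRNAs that pair with their seed, the bases near their 5′ end. Most are cut from a longer transcript by the nuclear enzyme Drosha. miR-1224 is a mirtron, a short intron whose spliced and debranched RNA folds into a hairpin that Dicer can process directly, so that its production bypasses Drosha and follows splicing of the host gene. The host is Vwa5b2, which encodes a protein with a von Willebrand factor A domain, and miR-1224 is best known from brain.

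In the RefSeq tables for GRCm38.p6, the Mir1224 hairpin spans chr16:20604452-20604536 on the plus strand and lies inside Vwa5b2 (chr16:20589428-20605378). Exon and intron limits of Vwa5b2 were not used here. The hairpin is shown because its ends are those of an intron, with the splice donor GU and the splice acceptor AG in capitals. The mature arms are shown with the seed (bases 2 to 8) in capitals. The study calls the probe miR-1224-5p, and this arm begins at the first base of the hairpin.
Mir1224 hairpin: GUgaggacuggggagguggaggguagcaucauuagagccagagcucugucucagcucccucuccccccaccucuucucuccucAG
mmu-miR-1224-5p (chr16:20604452-20604472): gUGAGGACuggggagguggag
mmu-miR-1224-3p (chr16:20604516-20604536): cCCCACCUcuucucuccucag

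Of 997 distinct mouse hairpins in the table, 30 (3.01%) begin with GU and end with AG. The seed UGAGGAC occurred in 1 of 1674 distinct mature miRNAs, which was miR-1224-5p itself, and no other mature miRNA shared its bases 2 to 7. The 5p arm is rich in G, with 13 of 21 bases (61.9%), where the median over mature miRNAs was 26.9% and 0.717% of them had as large a share.

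Total counts on miRNAs were between 71260 and 288481 in CT, 74888 and 598321 in FT, and 70164 and 313180 in M. Plasma had fewer in the controls, at 36639 for CS2, 18350 for CS3 and 214285 for CS4, while TS had between 94466 and 269005. To make normalized counts, each sample was scaled so that its top miRNAs (100 in tissue, 30 in plasma) had the same geometric mean in every sample of that kind. A miRNA was read as detected where its count was above the mean plus 2 SD of the 8 negative hybridization controls of that sample.

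In control fallopian tubes, miR-1224 was counted 47, 78, 72, 57 and 23 times in CT1 to CT5. Their detection levels were 27.8, 67.7, 36.3, 30.8 and 43.5 counts, so it was detected in 4 of 5 controls and CT5 was below its level. Normalized counts were 51.4, 51.1, 71.3, 42.4 and 53.9, or 54.0 ± 10.6 (SD, n = 5). The control tubes were close together, with the highest 1.68 times the lowest. Since CT counts lay near background, fold changes against CT are over a level that background helps to set.

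In doxycycline-induced tubes, miR-1224 was counted 179, 1082, 29, 120 and 80 times in FT1 to FT5, above the detection level in all 5. Normalized counts were 62.5, 2563, 62.7, 238.6 and 43.6, or 594.1 ± 1104 (SD, n = 5). FT2 stood apart at 10.7 times the next FT sample and 47.5 times the CT mean. FT4 was second at 4.42 times the CT mean and above every CT sample. FT1, FT3 and FT5 fell within the range of the controls, so FT and CT overlapped. In FT3 the deposited count of 29 was just above the detection level of 24.2.

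In metastatic tumors, miR-1224 was counted 5041, 531, 1479, 1122 and 1099 times in M1, M2, M3, M4 and M6, again above the detection level in all 5. Normalized counts were 13485, 494.5, 4075, 2712 and 750.0, or 4303 ± 5339 (SD, n = 5). All 5 tumors were higher than all 5 control tubes, with the lowest tumor at 6.94 times the highest control. Such a separation, with every M sample above every CT sample, was found for 42 of the 566 miRNAs (7.42%). The tumors differed widely among themselves, and the highest (M1) was 27.3 times the lowest (M2). The ovarian metastatic tumor M6 was the second lowest, and FT2 fell among the tumors, between M6 and M4.

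As a share of all miRNA counts of the sample, miR-1224 took 4.88% in M1 (95% Wilson interval 4.75 to 5.02), 2.11% in M3 (2.0 to 2.22), 0.911% in M4 (0.860 to 0.966), 0.351% in M6 (0.331 to 0.372) and 0.210% in M2 (0.193 to 0.228). In FT2 the share was 0.616% (0.581 to 0.654), and in the control tubes it was between 0.0245% and 0.0388%. These intervals cover counting error only. The share uses the total of the sample in place of its top miRNAs, and on it the order of the tumors and of FT2 was the same as on normalized counts.

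**Figure D1:**
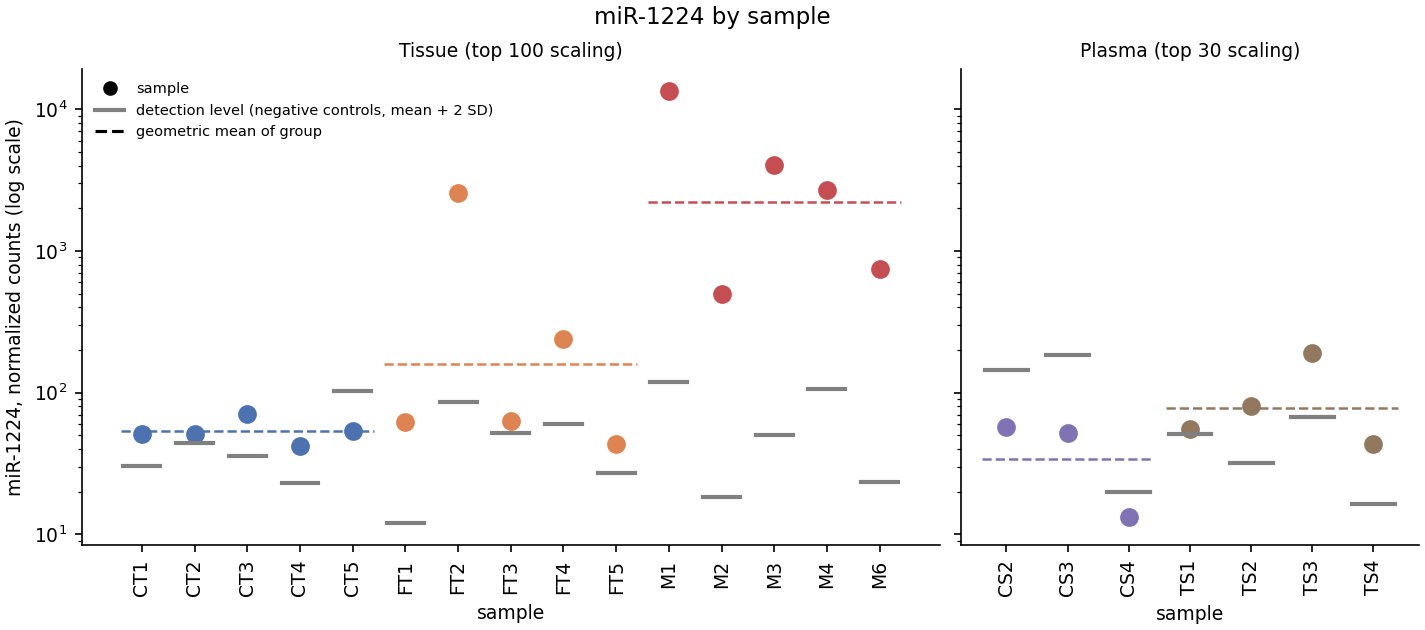
Normalized counts of miR-1224 in each sample (points, log scale), with tissue and plasma on separate scalings. Grey bars mark the detection level of the sample (mean plus 2 SD of the 8 negative hybridization controls) and dashed lines the geometric mean of the group. All 5 M samples lie above all 5 CT samples, FT2 lies among M, and the 3 CS samples lie below their detection levels.

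The comparison of M with CT asked which miRNAs differ in metastatic tumors. On the log2 scale, normalized counts of miR-1224 were 5.74 ± 0.27 (SD, n = 5) in CT. FT had 7.32 ± 2.42 (SD, n = 5) and M had 11.12 ± 1.92 (SD, n = 5). The log2 fold change of M over CT in an edgeR fit of all 566 miRNAs was 6.31 (standard error 0.868), the third largest increase, against a median of 0.29 over all miRNAs. In that comparison, 82 of the 566 miRNAs (14.5%) passed the threshold of 0.05 in either direction. The ratio of means, 79.7-fold, leaned on M1, and the ratio of geometric means was 41.9-fold. Without M1 the tumors averaged 2008 ± 1697 (SD, n = 4) and the edgeR log2 fold change was 5.21. In bulk samples such as these, more cells of a type and more RNA per cell cannot be told apart.

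The comparison of FT with CT asked which miRNAs differ in tubes after induction, and it used the same 5 CT samples. Here the log2 fold change of miR-1224 was 3.45 (standard error 0.899), the 4th largest increase, against a median of 0.15. The value rested on FT2. Without FT2 the induced tubes averaged 101.8 ± 91.6 (SD, n = 4) and the log2 fold change was 0.89. With all 5 tubes, methods that average on the log2 scale (limma, quantile normalization and the methods' t-test) gave 1.49 to 1.7. By edgeR 1 of 566 miRNAs (0.177%) passed the threshold, which was miR-122, a liver miRNA. For 3 miRNAs (0.53%), namely miR-122, miR-146a and miR-486, every FT sample was above every CT sample. These miRNAs are named because the counts are small, and miR-1224 was not among them. By geometric means the ratio of M to FT was 13.96, but the groups overlapped through FT2.

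With Brca genotype, the induced tubes divided as follows. The 3 tubes heterozygous for the Brca2 deletion (FT1, FT3 and FT5) had normalized counts of miR-1224 between 43.6 and 62.7, within the control range of 42.4 to 71.3. The 2 tubes with a homozygous Brca deletion were FT2, for Brca1, and FT4, for Brca2, the highest and second highest at 2563 and 238.6. Among the tumors, M1 and M3, both Brca2-/-, were the highest at 13485 and 4075. The 3 tumors heterozygous for Brca1 or Brca2 (M2, M4 and M6) lay between 494.5 and 2712. Thus in FT and in M every sample with a homozygous deletion was above every heterozygous sample of its group, with 2 against 3 samples in each. How many of the 566 miRNAs have the same order was not counted. The order was not particular to miR-1224, since miR-2134, miR-2133 and miR-2137, described below, had it in both groups. For miR-2134, FT2 and FT4 were at 613.5 and 25.8, and the heterozygous tubes at most at 23.8. M1 and M3 were at 11155 and 3378, and the heterozygous tumors at most at 2175. FT4 was below the detection level for these probes, so its place in their order is background. They were picked for likeness to miR-1224, and miR-2140 and miR-1198, picked likewise, did not have the order in both groups. Heterozygous tumors were nevertheless above every control and above FT4. The samples also differed in other engineered alleles, so the order cannot be assigned to Brca alone. No genotype was tested, because the sample labels do not give them and the grouping was made with these values known.

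The 4 housekeeping mRNA probes of the assay, for Actb and Gapdh (cytoskeleton and glycolysis), B2m (the light chain of MHC class I) and Rpl19 (a ribosomal protein), moved with miR-1224 in most samples. As the mean of their log2 normalized counts, they were at 8.61, 9.66, 10.3, 9.11 and 9.21 in CT1 to CT5. In FT1 to FT5 they were at 11.93, 13.82, 7.91, 11.81 and 9.08. In M1, M2, M3, M4 and M6 they were at 12.6, 11.09, 12.1, 13.98 and 12.0. FT2, the FT sample with the most miR-1224, was also the one with the most housekeeping mRNA, and all 5 tumors were above all 5 controls in both measures. The match was not complete. FT1 had a high housekeeping level of 11.93 and a log2 miR-1224 of 5.97, inside the control range. M4 had the highest housekeeping level of all tissue samples but only the median miR-1224 of the tumors.

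Over the 10 FT and M samples, log2 normalized counts of miR-1224 and the housekeeping mean had a Pearson's r of 0.737 and a Spearman's rho of 0.794. miR-1224 was chosen partly for this relation, so it is given as a description of these samples, without a test. Some of the 10 samples also share a mouse, since the study took both a tube and a tumor from some of its animals. Without FT3 and FT5, the 2 samples farthest from the median housekeeping level, r was 0.510 (n = 8), so the relation leaned on those samples. With the mean of FT and of M removed it was 0.696. Taken singly, r was 0.780 for Rpl19, 0.748 for Actb, 0.724 for Gapdh and 0.573 for B2m. In the same order, Spearman's rho was 0.818, 0.733, 0.721 and 0.430. Without the 2 samples farthest from the median of each probe, r was 0.680 for Rpl19, 0.551 for Actb, 0.695 for Gapdh and 0.0635 for B2m. miR-1224 and the mRNA probes share the miRNA scaling of each sample. On counts as deposited, without that shared divisor, r was 0.579.

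**Figure D2:**
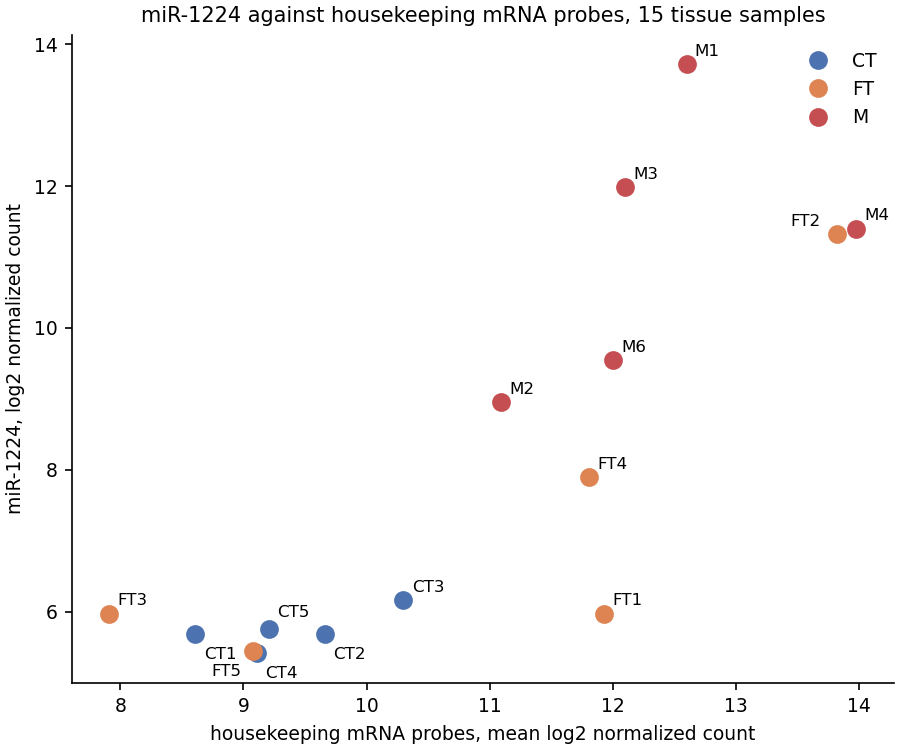
Log2 normalized count of miR-1224 (vertical) against the mean log2 normalized count of Actb, B2m, Gapdh and Rpl19 (horizontal), 1 point for each of the 15 tissue samples. FT1 lies at 11.93 housekeeping with a log2 miR-1224 of 5.97, well below FT4 and M6 at a like housekeeping level, while M1 lies highest in miR-1224 at a housekeeping level of 12.6.

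Relative to housekeeping mRNA, that is, as the ratio of its normalized count to their geometric mean, miR-1224 was between 0.0567 and 0.131 in CT and between 0.168 and 2.17 in M. The 5 tumors therefore stayed above the 5 controls, with M4 lowest at 0.168 and M1 highest at 2.17. M3 followed at 0.926, and M2 and M6 were at 0.226 and 0.183. In FT the ratio was 0.0160, 0.177, 0.261, 0.0665 and 0.0808 in FT1 to FT5. FT3 was highest on this ratio and FT1 lowest, and FT2 no longer stood apart. By geometric means the ratio was 5.32-fold higher in M than in CT, and 1.04-fold in FT. When edgeR used the housekeeping probes as the scaling, the log2 fold change of miR-1224 was 3.14 (standard error 0.851) in M and 0.51 (standard error 1.18) in FT. The same scaling moved the median of all 566 miRNAs to −2.64 in M and −0.34 in FT. Relative to that median, miR-1224 was 5.78 higher in M, against 6.02 with the miRNA scaling. In FT it was 0.85 higher, against 3.3 with the miRNA scaling, so most of the excess in FT was gone. Counts of housekeeping mRNA relative to miRNA thus differed between samples, and its part in the level of miR-1224 was not tested.

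**Figure D3:**
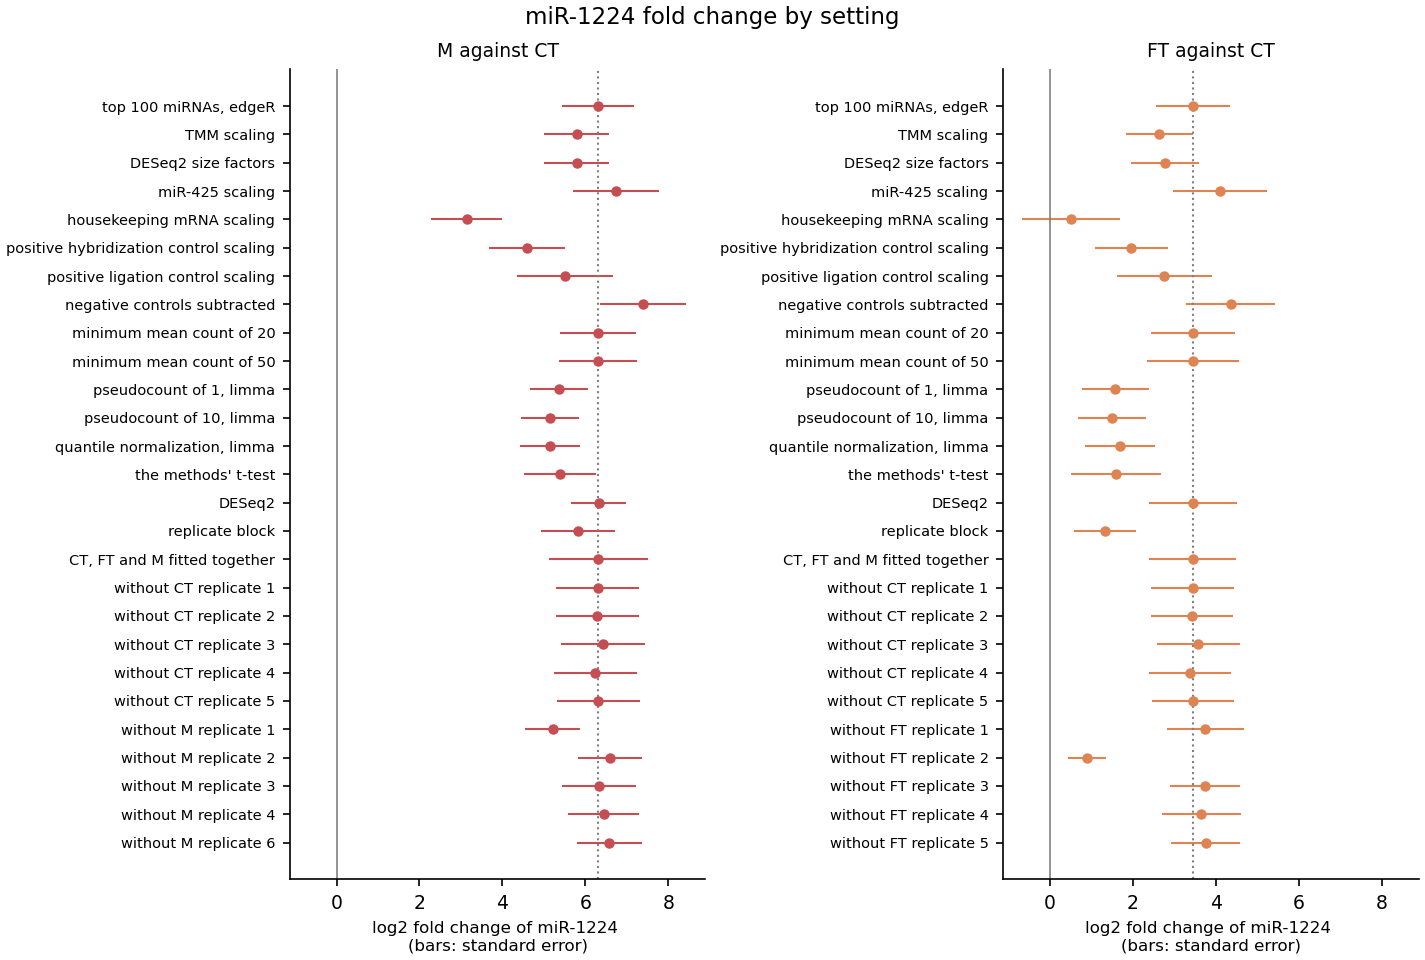
Log2 fold change of miR-1224 (points) with its standard error (bars) in M and in FT against CT, for the scaling to the top 100 miRNAs (top, dotted line) and 26 alternatives. In M every value lies above 3, and in FT the values without FT2 (0.89) and with housekeeping scaling (0.51) are the lowest.

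Levels of other miRNAs were compared with miR-1224 over the 10 FT and M samples, among the 140 others whose counts averaged 50 or more in tissue. The 5 most like it were, in order, miR-2134, miR-2140, miR-1198, miR-2133 and miR-2137, with Pearson's r of log2 normalized counts between 0.936 and 0.967. In all, 13 of the 140 were above 0.9, and the median r was 0.0128 with 69 below 0. The r of miR-1224 with housekeeping mRNA, 0.737, was exceeded by 26 miRNAs. With the means of FT and M removed, an alternative chosen after seeing the data, these 5 were at ranks 2, 6, 1, 4 and 12. At the other end were miR-125b-5p (−0.864) and miR-29b (−0.846), named after their values were seen. The points share library and scaling, and r is a description here. miR-2134, miR-2133 and miR-2137 passed the filter through the tumors. Both miR-2133 and miR-2137 were below the detection level in all 5 CT and all 5 FT samples. Their FT values in these r are therefore background. Of the others, miR-2134 was detected in 2 of 5 FT samples, miR-2140 in 3 and miR-1198 in 4. Some of their FT values are thus background too.

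For 2 of these 5 miRNAs a mature sequence was in the RefSeq table. They are shown, with the seed in capitals, because neither shares the seed of miR-1224-5p (UGAGGAC) printed above.
mmu-miR-1198-5p (chrX:7807142-7807163, plus strand): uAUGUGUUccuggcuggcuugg
mmu-miR-2137 (chrX:72992113-72992133, plus strand): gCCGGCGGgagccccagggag

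The nearest probe, miR-2134, had normalized counts of 16.1, 613.5, 23.8, 25.8 and 6.54 in FT1 to FT5. In the tumors it was at 11155, 116.4, 3378, 2175 and 73.7 in M1, M2, M3, M4 and M6, and in CT it was between 7.44 and 16.8. Like miR-1224, it was highest in M1, then M3, M4 and FT2. Unlike miR-1224, which passed the detection level in all 5 FT samples, it passed in 2 of 5, and its counts were 11, 13 and 12 in FT3, FT4 and FT5. miR-1198 covered a smaller range, with 310.3 in FT2, 81.5 in FT4 and 61.5 to 454.8 in M, against 21.1 to 40.6 in CT. The edgeR log2 fold changes of M over CT were 8.17 for miR-2134, 7.01 for miR-2133, 4.47 for miR-2140, 3.95 for miR-2137 and 2.79 for miR-1198, beside 6.31 for miR-1224. In FT over CT they were 3.52, 1.35, 3.24, 0.21 and 1.62 in the same order, beside 3.45. CT counts of these 5 miRNAs were between 4 and 61, near the negative controls.

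**Figure D4:**
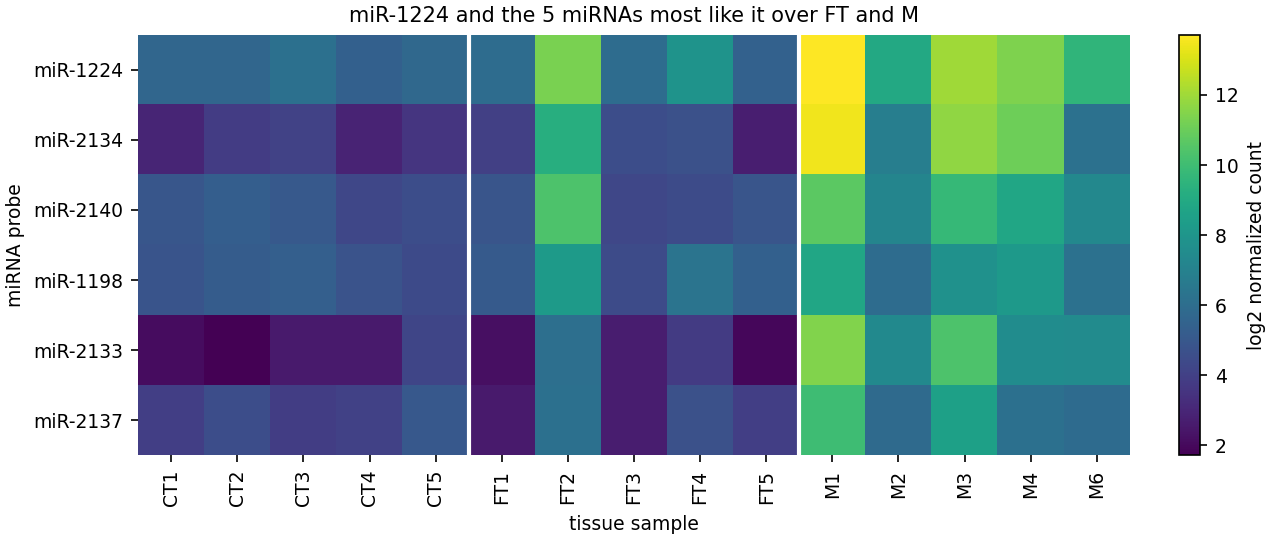
Log2 normalized counts (colour) of miR-1224 and the 5 miRNAs most like it over the FT and M samples, in each of the 15 tissue samples (columns, with white lines between CT, FT and M). M1, M3 and FT2 stand out in most of the 6 miRNAs, and the CT columns are low in all of them.

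Other miRNAs that are made without Drosha were read for comparison. miR-877 is also a mirtron, and miR-320 and miR-484 come from capped precursors that are cut by Dicer without Drosha. The mature sequence of the second mirtron is shown beside that of miR-1224-5p because its seed differs, although both begin with the GU of an intron.
mmu-miR-877-5p (chr17:35960795-35960814, minus strand): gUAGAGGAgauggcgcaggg
None of the 3 passed the threshold by edgeR in M or in FT. Normalized counts of miR-877 in CT were 22.0 ± 11.9 (SD, n = 5). They were 18.6 ± 12.7 (SD, n = 5) for FT and 20.2 ± 13.5 (SD, n = 5) for M. Its log2 fold change by edgeR was −0.18 in M (adjusted p = 0.83) and −0.28 in FT (adjusted p = 0.853). For miR-320 they were 0.15 in M (adjusted p = 0.852) and −0.05 in FT (adjusted p = 0.986), and for miR-484 0.17 (adjusted p = 0.803) and 0.21 (adjusted p = 0.864). All 3 were near the negative controls, with counts of 5 to 55 in tissue, so a change was not detectable at this depth unless it was large.

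Markers of cell types were read beside miR-1224, as summed normalized counts. Because miR-1224 is known from brain, neural markers (miR-124, miR-9, miR-137 and miR-219) were included. They summed to 36.5 to 142.9 in CT, 32.1 to 139.8 in FT and 47.8 to 4531 in M. The high value was M4, where miR-9 was at 4425, while miR-9 was at most 35.5 in every other tissue sample. M1 and M3, the tumors with the most miR-1224, had miR-9 at 29.4 and 13.8. miR-124, the defining neuronal miRNA of the list, was between 8.38 and 50.8 in M, and 0 of 5 tumors passed the detection level.

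Leukocyte markers (5 of 5 on the panel) summed to 593.0 to 1164 in CT, 785.3 to 1336 in FT and 966.7 to 6301 in M. Of these, miR-223 of myeloid cells was at 615.3, 1885, 3739, 128.1 and 1342 in M1, M2, M3, M4 and M6. In the same tumors miR-142-5p was at 692.9, 75.4, 228.7, 625.9 and 75.1. M1, M3 and M4 were its highest tumors, as they were for miR-1224. Its level in M3 was nevertheless within the control range of 68.4 to 264.7, unlike that of miR-1224. The other arm, miR-142-3p, was lowest in M4 at 79.8, below its detection level there. Among the tumors, miR-223 and miR-150 (130.5) were lowest in M4 as well. Over FT and M the r with miR-1224 was 0.678 for miR-142-5p, 0.385 for miR-142-3p, 0.362 for miR-223 and 0.148 for miR-150. No r is given for miR-155, which had a count of 1 in every tissue sample. Markers of ciliated epithelium (6 of 6 on the panel) summed to 315.9 to 3773 in CT, 109.0 to 1785 in FT and 32.6 to 107.0 in M, where none of the 6 passed the detection level in any tumor. The miR-200 family of epithelium summed to 9285 to 11038 in CT, 8247 to 45392 in FT and 242.5 to 42010 in M. Smooth muscle and stroma markers summed to 4713 to 13280 in CT, 3111 to 16868 in FT and 626.5 to 3821 in M. The erythrocyte markers summed to 112.5 to 674.6 in CT, 273.0 to 2518 in FT and 357.7 to 2860 in M. Liver miR-122 was at 7.21 to 14.1 in CT, 18.5 to 1269 in FT and 24.8 to 129.0 in M. Over FT and M, the sums correlated with miR-1224 by an r of 0.443 (neural), 0.527 (leukocyte), −0.686 (ciliated), −0.465 (epithelium), −0.525 (smooth muscle and stroma), 0.189 (erythrocyte) and −0.483 (liver). The tissue mix thus moved along with miR-1224 between CT and M, and the part of these cells in its level was not tested.

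In plasma, the comparison of TS with CS asked whether miRNAs differ in the circulation of mice with tumors. miR-1224 was counted 18, 7 and 32 times in CS2, CS3 and CS4, where the detection levels were 45.5, 25.0 and 48.4, so no control plasma was above its level. In TS1 to TS4 it was counted 40, 74, 102 and 85 times, above the detection levels of 37.0, 29.4, 36.0 and 32.2 in all 4. The count in TS1 was just above its level and below the highest negative control of that sample, at 42. Before normalization the groups did not overlap, but the depths of CS2 and CS3 were the lowest of the series. Normalized counts were 57.2, 51.7 and 13.3 in CS and 55.1, 80.5, 191.5 and 43.4 in TS, or 40.7 ± 23.9 (SD, n = 3) and 92.6 ± 67.7 (SD, n = 4), and these overlapped. The normalized detection levels of CS2 and CS3, 144.6 and 184.7, were above most TS samples. With each CS sample set at its detection level, TS was 0.959 times CS by geometric means, so an increase cannot be stated.

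The log2 fold change of miR-1224 in TS over CS was 1.24 (standard error 0.896, adjusted p = 0.57 by edgeR's quasi-likelihood test with Benjamini-Hochberg adjustment), against a median of −0.89 over all miRNAs. When the 7 plasma samples were permuted between TS and CS, the exact two-sided p for their log2 means was 0.286 over 35 splits. With 4 samples against 3 the smallest p of that test is 0.0571, so it cannot pass the threshold. The study also listed the plasma value of miR-1224, so these tests are not independent of its choice. By edgeR 0 of 566 miRNAs (0%) passed the threshold in plasma, as with DESeq2 and limma, and 42 had an unadjusted p below 0.05. For 4 miRNAs (0.707%), which were let-7b, miR-126-3p, miR-126-5p and miR-27a, every TS sample was above every CS sample on normalized counts. These 4 are named after their values were seen.

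Plasma and tube of the same mouse were set side by side without a test, since they were scaled apart. FT2, the tube with the most miR-1224 at 2563, came from the mouse of TS1, whose plasma was at 55.1, the second lowest of the 4 TS samples. FT4 at 238.6 came from the mouse of TS3, the highest plasma at 191.5. FT3 and FT5, at 62.7 and 43.6, came from the mice of TS2 and TS4, at 80.5 and 43.4. In the controls, CT2, CT3 and CT4 at 51.1, 71.3 and 42.4 matched CS2, CS3 and CS4 at 57.2, 51.7 and 13.3, all below detection in plasma. The mouse with the highest tube level thus did not have the highest plasma level.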

How the data were processed

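The counts that the authors deposited came from the nCounter miRNA Expression Assay v1.5 of NanoString (100 ng of tissue RNA or 10 ng of plasma RNA), before the normalization made in nSolver. Whether a control-based correction came before deposit is not given in the sources used here. The columns that matched no sample numbered 0. Counts of all 566 mouse miRNAs were fitted by the quasi-likelihood method of edgeR 4.0.16 under R 4.3.3 (Benjamini-Hochberg adjustment, threshold 0.05), with the geometric mean of the top 100 (tissue) or top 30 (plasma) miRNAs as library size, no filter and no background subtraction. DESeq2 1.42.0 and limma 3.58.1 served as alternatives. Python 3.11.15 with numpy 2.4.6, pandas 2.3.3, scipy 1.17.1 and matplotlib 3.10.9 gave levels, correlations and figures. The fit was tested on simulated data.

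The alternatives were other scalings (TMM, DESeq2 size factors, miR-425, housekeeping, positive and ligation controls, quantile), subtraction of negative controls, a minimum mean count (20 or 50), a pseudocount (1 or 10), the methods' t-test, all tissue fitted together, the replicate number as a block, and omission of each sample in turn. Named were miR-1224, the 5 miRNAs most like it, the housekeeping probes, 3 other Drosha-independent miRNAs and marker lists from general knowledge. The miRNA, lists and tests were chosen with earlier results of these data known. The sources do not name the mouse of each tumor, and some tubes and tumors share a mouse, so p-values measure only the spread between samples. Sequences are from RefSeq (GRCm38.p6). Other engineered alleles of the mice are not reported here.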

Additional observations from a re-analysis of the deposited data

Results flagged for a closer look

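Within groups of 4 or 5 samples, 20 pairs of group and measure were examined for a sample far from the others with Dixon's test, which picks out about 1 in 20 groups by chance, and 6 were found. For miR-1224, FT2 was far above the other induced tubes, with 1082 counts as deposited and 2563 normalized counts. M1 was far above the other tumors, with 5041 counts as deposited and 13485 normalized counts. For the geometric mean of the housekeeping probes, FT2 was far above the other induced tubes at 14449 normalized counts, and M4 above the other tumors at 16169. For miR-1224 on the log2 scale, and relative to the housekeeping probes, no sample was picked out, and the housekeeping mean was not examined on the log2 scale. The spread of miR-1224 in FT and M is among the values it was selected on, so its 4 cases restate that choice.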

How the results depend on the processing

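Every alternative kept the direction of miR-1224 in all 3 comparisons, though in plasma no CS sample was above its detection level. With each CS sample set at that level, TS was 0.959 times CS by geometric means. The direction in plasma is therefore not established. With housekeeping scaling the log2 fold change was 3.14 in M and 0.51 in FT. In both comparisons the other 15 alternatives that used all samples lay within 1 SD of the reported value. That SD was of log2 normalized counts in the group (1.92 in M, 2.42 in FT), and the lowest of these alternatives in FT was 1.32. FT2 widens the SD in FT, so lying within it does not show that the FT value is stable. Leaving out each sample gave 5.21 (without M1) to 6.60 in M and 0.89 (without FT2) to 3.76 in FT. In plasma, leaving out each sample gave 0.62 to 1.65 (adjusted p 0.554 to 0.997 by edgeR) and the other alternatives 0.96 to 4.18 (adjusted p 0.131 to 0.999), none past the threshold. The correlation with the housekeeping probes was 0.579 on counts as deposited and at least 0.664 without each sample in turn. The cause was not tested. Replicate numbers were not read as pairs, since the labels tie them to no shared mouse (correlations of deviations −0.183 to 0.118 in M, −0.375 to 0.299 in FT and −0.0522 to 0.322 in plasma). With the number as a replicate block the log2 fold change was 5.82 in M, 1.32 in FT and 1.35 in plasma. The number of miRNAs past the threshold ranged from 32 (the methods' t-test) to 504 (housekeeping scaling, 6 higher and 498 lower) around 82 in M, from 0 to 12 (without FT3) around 1 in FT, and from 0 to 90 (replicate block) around 0 in plasma. The 32 in M came from a t-test on log2 normalized counts with Benjamini-Hochberg adjustment. It is therefore not the count that the study reported from its own t-test. Counts near the negative controls limit what can be read in CT and CS.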
